A study of Homo sapiens with 6 samples.

Results

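The ubiquitin-specific proteases (USPs) form the largest family of deubiquitinating enzymes in human cells, and USP39, a splicing protein, carries the family's name. Binding sites of USP39 on RNA were examined in the genes of this family. Members were the protein-coding genes on the autosomes and chromosome X whose RefSeq symbol is USP and a number, with or without a final X. USP39 itself and the USP17L genes were left out. This gave 49 of the 19974 protein-coding genes on these chromosomes. USP6NL, whose symbol also starts in this way, encodes no protease and was not counted; it had 0 sites. A binding site was counted for a gene when its central base lay in the gene span, the stretch from the annotated start to the annotated end with introns included, on the strand that held most of the sites in that span. The members held 178 of the 34781 sites in the list.

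The sites came from iCLIP2, in which UV light joins proteins to the RNA they touch and the place of the joint is read from the end of the cDNA. Wild-type cells of HEK293T, a widely used line derived from human embryonic kidney, were irradiated at 254 nm, and USP39 was pulled down with an anti-USP39 antibody. There were 6 libraries, 3 replicates from a low and 3 from a high region of the membrane, both cut at sizes above that of USP39. Only 1 merged list of sites, each 5 nt wide, was analysed, so no value belongs to 1 library, the read depth of a site is unknown, no replicate error exists, and the low and high regions were not compared. The score deposited for each site is 0 throughout, so sites have no height. Cells without UV treatment, the study's negative control, were not analysed here, and RNA abundance was not measured; a gene with more sites is therefore not shown to be bound more strongly, and sites are not shown to exceed background. Of 4 genes written down as typical of HEK293T cells, IRS4 had 180 sites, while the neurofilament genes NEFL and NEFM and the related INA had 0. All 10 genes typical of other cell types, such as ALB, HBB and PTPRC, had 0.

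Ubiquitin is a small protein that is linked to other proteins as a signal for their destruction, relocation or activity. USPs cut it off again with a cysteine in their active site, and each acts on its own set of proteins, among them histones, DNA repair factors and receptors. USP39 keeps the fold of the family but lacks the active-site residues needed for cutting, and it works as a component of the tri-snRNP, the particle that brings U4, U5 and U6 snRNA to the spliceosome. The question addressed here is where on the RNAs of its relatives USP39 sites lie.

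Letters of RNA at a site could be read only where a site fell into a RefSeq promoter window (GRCh38.p14), which covers 250 bases before and 50 after an annotated transcript start. This was so for 1 site of a member, in USP1, and for 1 site just before the start of USP5. They are shown because they are the sites of the family whose sequence is known here. Both are written 5′ to 3′ as DNA of the plus strand, the strand of both genes, with the 5 bases of the site in capitals. The USP1 window spans chr1:62436799-62437098 and its site lies at chr1:62436858-62436862. The USP5 stretch of 29 bases has its site at chr12:6852127-6852131.
USP1: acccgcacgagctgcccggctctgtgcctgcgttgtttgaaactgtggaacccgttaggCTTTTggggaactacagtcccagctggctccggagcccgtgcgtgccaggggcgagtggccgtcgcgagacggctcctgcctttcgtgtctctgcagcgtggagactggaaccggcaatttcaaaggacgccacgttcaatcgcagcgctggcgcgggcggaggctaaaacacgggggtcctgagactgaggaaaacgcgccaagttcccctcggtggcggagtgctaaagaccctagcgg
USP5: aggggcaggggaGGGGActgggaacggtg
The USP1 site, CTTTT, holds 4 T in 5 bases. It lies 466 nt into the USP1 span and 189 nt before a second transcript start at position 62437049. Which of the transcripts carried it is not known. The USP5 site, GGGGA, holds no T; it lies 21 nt before the annotated USP5 start, so it is not counted among the member sites. Over all genes, 800 sites could be read in promoter windows on the strand of the gene. Of these, 20.25% (162 sites; 95% Wilson interval 17.6% to 23.2%) held at least 4 T, against 2.09% of all stretches of 5 bases in the 35116 windows. The central base was T in 66.1% (Wilson interval 62.8% to 69.3%), while T made up 21.3% of the bases of the windows. UV light at this wavelength is known to join proteins to uridine most readily, and its part in these shares was not tested. Most bases of a window lie before its transcript start, so the shares over all windows are not those of the RNA in the cells.

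USP39 sites were found in 18 of the 49 USP genes, and USP9X and USP22 held most of them. USP9X, an X-linked deubiquitinase that acts on trafficking and signalling proteins, had 66 sites. USP22, which removes ubiquitin from histone H2B as a subunit of the SAGA co-activator, had 36. Together they held 102 of the 178 sites (57.3%). USP1, which removes ubiquitin from FANCD2 and PCNA during DNA repair, and USP24, one of the very large members, had 13 each. USP7, which stabilises MDM2, had 8. USP34, a regulator of Wnt signalling through axin, and USP48, a nuclear enzyme, had 7 each, USP21, a histone H2A deubiquitinase, had 6 and USP19, which is anchored in the endoplasmic reticulum membrane, had 5. USP32 had 4 sites, USP33 had 3, and USP10, USP11 and USP28 had 2 each. USP5, which takes apart free ubiquitin chains, USP14, which sits on the proteasome, USP31 and the nucleolar USP36 had 1 each.

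**Figure D1:**
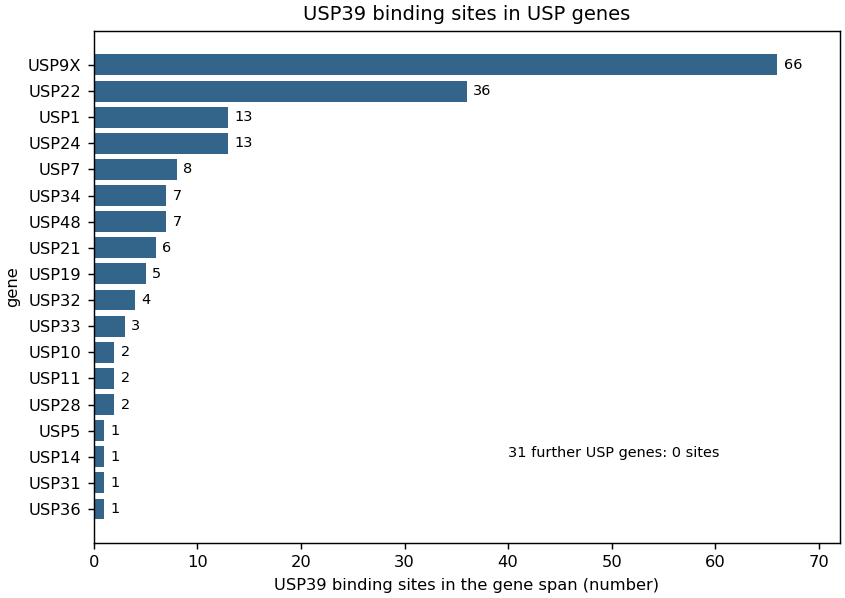
Number of USP39 binding sites (x axis) in the span of each of the 18 USP genes with a site (y axis), 1 bar per gene, from the merged list, with no replicate error. USP9X and USP22 stand apart with 66 and 36 sites, and no other member exceeds 13.

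The other 31 members had 0 sites. They were USP2, USP3, USP4, USP6, USP8, USP12, USP13, USP15, USP16, USP18, USP20, USP25, USP26, USP27X, USP29, USP30, USP35, USP37, USP38, USP40, USP42, USP43, USP44, USP45, USP46, USP47, USP49, USP50, USP51, USP53 and USP54. Among them are USP8, which acts on receptors at endosomes, USP30 of the mitochondrial outer membrane, USP18, which removes the ubiquitin-like ISG15, and USP26 and USP29, known from testis. Neither strand of these 31 spans held a site, so the strand rule and overlapping genes do not bear on these zeros. A count of 0 says that no site was called at this depth, which is unknown, and not that USP39 does not bind.

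The share of members with a site was 36.7% (95% Wilson interval 24.7% to 50.7%), beside 23.2% of all 19974 protein-coding genes counted in the same way. At least 3 sites were found in 11 members (22.4%, interval 13.02% to 35.9%), beside 12.8% of all genes. At least 5 were found in 9 members (18.4%, interval 9.98% to 31.4%), beside 8.92%. At least 10 were found in 4 members (8.16%, interval 3.22% to 19.2%), beside 4.62%. These intervals cover counting error only and treat genes as independent. Expression of the genes was not measured, and its part in these shares was not tested. The median member with a site had 4.5 sites, beside 3 in all genes with a site, and 4 of the 18 had a single site (22.2%), beside 29.7% of all genes with a site. By number of sites, 36 protein-coding genes had more than USP9X and 141 had more than USP22.

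USP genes are long, with a median span of 71.8 kb beside 24.2 kb for all protein-coding genes. The median span was 67.8 kb in members with a site and 73.9 kb in those without. By class of length, 5 of the 8 members up to 20 kb had a site (62.5%, Wilson interval 30.6% to 86.3%), beside 20.46% of all genes of that class; these were USP1, USP5, USP11, USP19 and USP21. Of 8 members between 20 and 50 kb only USP22 had one (12.5%, interval 2.24% to 47.1%), beside 28.2% of all genes. Between 50 and 100 kb it was 7 of 20 (35.0%, interval 18.1% to 56.7%), beside 26.4%, and over 100 kb 5 of 13 (38.5%, interval 17.7% to 64.5%), beside 20.6%. With groups of 8 to 20 genes the intervals are wide, and those of 3 of the 4 classes contain the share of all genes; that of the shortest class does not.

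Per kb of span, the order of the members differed from that by number. USP21 was densest with 0.964 sites per kb, followed by USP1 with 0.844, USP22 with 0.8215, USP9X with 0.437 and USP19 with 0.391. USP24, with as many sites as USP1, had 0.0872 per kb, and USP34, in the longest span of the family (283.6 kb), had 0.0247. The lowest density among members with a site was 0.0114 per kb in USP31. The median over the 18 members was 0.0679 per kb, beside 0.127 over all genes with a site. The pooled density, with genes without a site included, went the other way. It was 0.0467 per kb in members, beside 0.0257 in all protein-coding genes. USP9X and USP22 held 57.3% of the member sites in this pooled value, and without them 76 sites remained. The pooled density without USP9X and USP22 is not given here, so a higher density is not shown for the other members. Of all genes with a site, 13.9% were denser than USP21 and 25.1% denser than USP9X. Among the 690 genes over 100 kb with a site, 5 had more sites than USP9X and 58 had more than USP24.

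**Figure D2:**
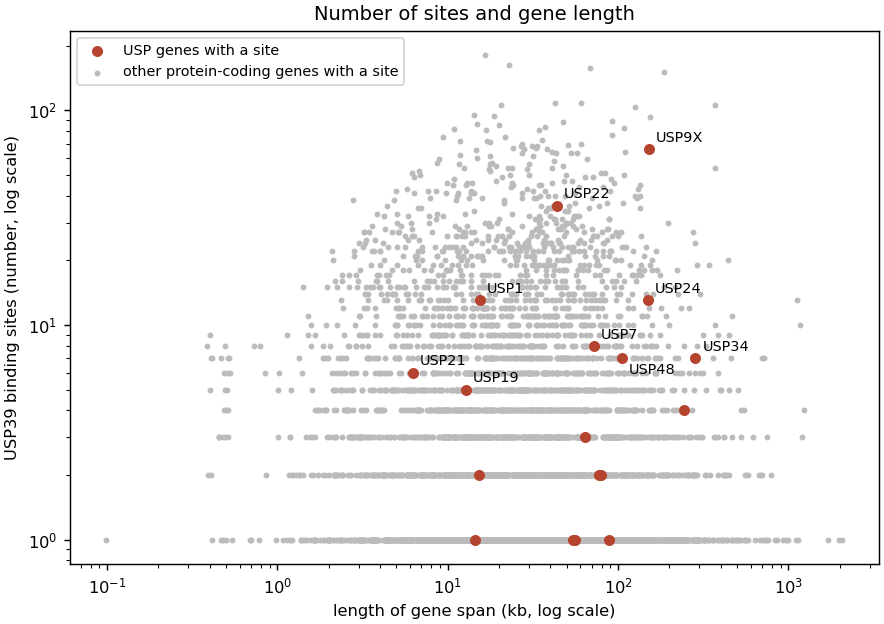
Number of sites (y axis, log scale) against the length of the gene span in kb (x axis, log scale) for USP genes with a site (red, members with 5 or more sites named) and all other protein-coding genes with a site (grey). USP9X lies near the upper edge of the genes over 100 kb, while USP24 and USP34, of similar or greater length, lie lower with 13 and 7 sites.

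All sites in members lay on 1 strand of the gene. None of the 18 members had a site on its other strand, and of the 11 members with at least 3 sites all were on a single strand, as were 96.8% of the 2557 protein-coding genes with at least 3. The promoter table gave a strand for 14 of the 18, and in all 14 the sites lay on that strand. For USP9X, USP24, USP31 and USP48 the strand was taken from the sites alone.

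USP9X on chromosome X (41085445 to 41236579, 151.1 kb) had sites at its start and, after a long gap, along most of the rest of the gene. The first 5 lay close to the start, at 248, 484, 527, 537 and 630 nt from it. A pair of further sites lay just outside the span, 9 and 2 nt before the annotated start on the same strand, and is not counted among the 66. Then came a stretch of 37.4 kb with no site, the longest in the gene. From the site at 38.1 kb (41123516 to 41123520) to the one at 147.7 kb (41233146 to 41233150), 61 sites followed, spread with a median distance of 628 nt between neighbours over the whole gene. They often came in small groups: 3 sites near 49.3 kb had centres within 67 nt, 3 near 129.2 kb within 74 nt, and 4 near 133.1 kb within 131 nt. The last site lay 3431 nt before the annotated end, and the last 1000 nt held 0. In all, 21 sites lay in the first 50% of the span and 45 in the last 50%. Of the 1006 protein-coding genes with a span of at least 20 kb and at least 5 sites, 26 (2.58%), USP9X among them, had 5 or more in their first 1000 nt. That limit was set at the count of USP9X itself, so the share is a description.

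USP22 on chromosome 17 (20999596 to 21043419, minus strand, 43.8 kb) had its sites at the 3′ end. The first 16.3 kb had no site, 1 lay in the first 50% of the span and 35 in the last 50%, and 24 of 36 (66.7%) lay in the last 10%. These 24 ran from 2974 nt before the annotated end (21002568 to 21002572) to 80 nt before it (20999674 to 20999678). Neighbouring sites in the whole gene had a median distance of 160 nt, and the densest 1000 nt held 10 sites, a number exceeded in 141 genes. Upstream of this run, a group of 3 lay between 27.28 and 27.86 kb from the start and a pair at 22.23 and 22.25 kb. The last site also lay in the span of LOC124900389, a protein-coding locus that overlaps the end of USP22, whose strand was not given in the tables used here. No site lay in the 300 nt beyond the end.

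USP1 on chromosome 1 (62436395 to 62451804, 15.4 kb) had sites at both ends. Of its 13 sites, 4 lay in the first 1000 nt, at 466, 798, 842 and 957 nt from the start, the first of these being the CTTTT site printed above. Another 3 lay in the last 1000 nt, at 809, 640 and 438 nt before the end. The 6 between them stood at 3.55, 5.12, 5.81, 5.86, 8.84 and 11.1 kb from the start. USP9X and USP1 were the only members with a site in their first 1000 nt.

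USP24 on chromosome 1 (55066359 to 55215364, 149.0 kb) is as long as USP9X but had 13 sites and none near its start. The first lay 37.3 kb from it (55178074 to 55178078) and 11 more were spread from 61.1 to 123.3 kb. Only 1 site lay in the last 10%, 2501 nt before the end. The closest pair was 14 nt apart (116827 and 116841 nt from the start), and the median distance between neighbours was 7326 nt, against 628 nt in USP9X.

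**Figure D3:**
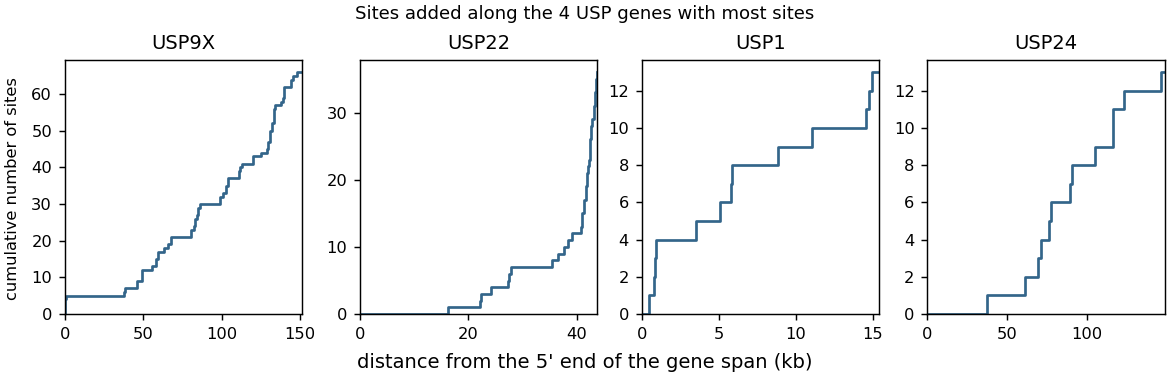
Cumulative number of sites (y axis) against the distance from the 5′ end of the span in kb (x axis) in the 4 members with most sites; each step is 1 site. USP9X climbs by 5 at its start and then along the gene from 38.1 kb on, USP22 gains 24 of 36 sites in its last 10%, USP1 gains 4 sites in its first and 3 in its last 1000 nt, and USP24 climbs through the middle of the gene.

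The members with 5 to 8 sites had them singly. USP7 on chromosome 16 (8892097 to 8963906, minus strand) had no site in its first 41.7 kb, and its 8 sites lay between 41.7 and 70.1 kb from the start, all in the last 50% of the span. USP34 on chromosome 2 (61187463 to 61471087, minus strand) had 1 site at 76.1 kb, then 129.5 kb with none, 5 sites between 205.7 and 247.8 kb, and 1 site 782 nt before the end. That last site also lay in the span of the pseudogene AHSA2P, whose strand was not given in the tables used here. USP48 on chromosome 1 (21678298 to 21783149, minus strand) had 3 sites between 26.98 and 30.5 kb, a pair at 57.1 and 57.4 kb, 1 at 81.6 kb and 1 that lay 877 nt before the end. The short USP21 on chromosome 1 (161159500 to 161165723) had 6 sites spread from 1226 nt after its start to 137 nt before its end. USP19 on chromosome 3 (49108050 to 49120823, minus strand) had a pair at 2825 and 3410 nt from the start and 3 sites from 8875 to 10237 nt. In these 5 genes no sites lay within 50 nt of each other.

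Sites in USP32, a Golgi and endosome enzyme on chromosome 17, lay in or beside a small RNA gene nested in its span. All 4 had their centres within 70 nt of each other in the 245.1 kb span, 190769, 190798, 190803 and 190839 nt from the start. The last 3 lay in SCARNA20 (60231516 to 60231645), a small Cajal body RNA, and the centre of the first lay 3 nt outside it. The strand of SCARNA20 was not known here, so the overlap is one of position only. Without these 4 sites 17 members had a site, and USP32 had 0.

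Among the members with 1 to 3 sites, USP33, USP11, USP28, USP5 and USP14 had all of theirs in the last 5000 nt of the span. The share over all genes with 1 to 3 sites was not computed. Of all protein-coding genes with at least 3 sites, 81.1% had a site in their last 5000 nt. That share asks for any site there, not for all of them, so it does not match the count of these members. The spans of USP11 and USP5 are 15.3 and 14.5 kb, so 5000 nt is a large part of each. A preference of these members for the end of the gene is therefore not shown. All 3 sites of USP33, which acts on the receptor of the axon guidance factor Slit, lay between 1201 and 803 nt before its end. Both sites of USP11, an X-linked enzyme tied to DNA repair, lay 320 and 67 nt before the end, and both of USP28, which stabilises MYC, lay 637 and 542 nt before it. The single site of USP5 lay 1457 nt and that of USP14 lay 4610 nt before the end. USP10, which binds the stress granule protein G3BP1, differed with 2 sites near its middle, 44.75 and 45.11 kb from the start. The single sites of USP31 and USP36 lay 18.2 and 33.1 kb before the end.

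**Figure D4:**
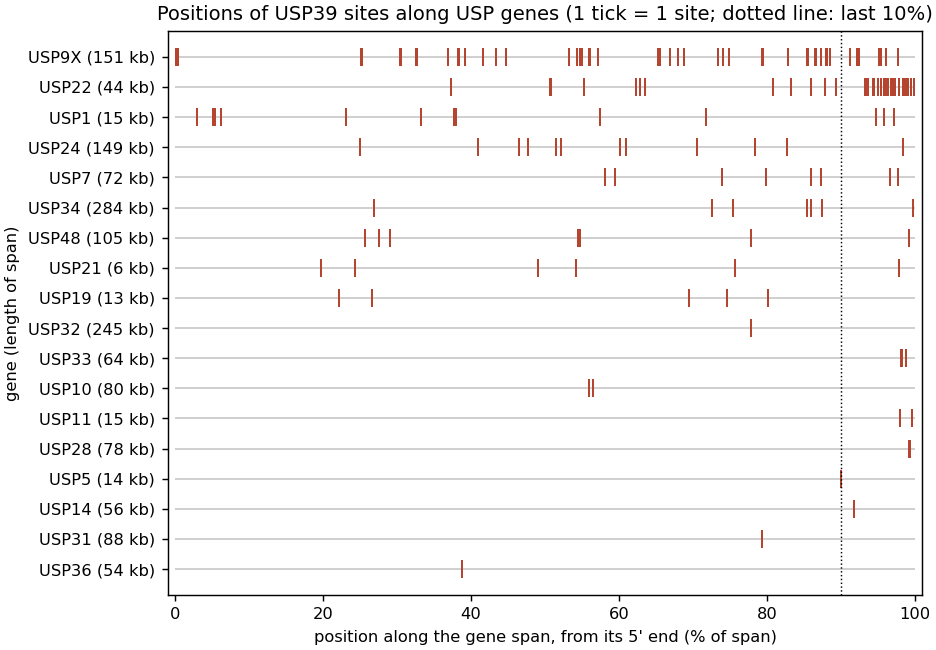
Position of every site (red tick) along the span of the 18 members with a site, in percent of the span from the 5′ end (x axis); the length of each span is given beside the gene on the y axis, and the dotted line marks the last 10%. Ticks crowd beyond the line in USP22, USP33, USP11 and USP28, and the 4 sites of USP32 fall on 1 place. USP9X has ticks at its start, then none before 25.2% of the span, and ticks along most of the rest.

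Pooled over the 11 members with at least 3 sites, the later part of the gene held more sites. The last 50% of the span held 125 of 168 sites (74.4%, Wilson interval 67.3% to 80.4%), beside 61.35% over all genes with at least 3 sites. Of the 125 sites, 45 were in USP9X, 35 in USP22 and 4 were the USP32 sites in or beside SCARNA20. More sites lay in the last 50% than in the first 50% in 9 of these 11 members (81.8%), beside 63.7% of all such genes. USP1 and USP21 were the exceptions, and USP32 was among the 9 through its sites in or beside SCARNA20 alone. The last 10% held 45 sites (26.8%, interval 20.7% to 33.95%), beside 23.6% over all genes, and 24 of the 45 were those of USP22; without USP22 the share was 15.9% (21 of 132, interval 10.65% to 23.1%). The first 10% held 9 sites (5.36%, interval 2.84% to 9.87%), beside 10.9%, and all 9 were in USP9X and USP1. The median member had its first site 25.7% of the way along the span, beside 10.99% for all such genes. Sites of a gene share their source, so the intervals, which cover counting error only, are too narrow. Exons were not known here, and the 3′ untranslated region, last introns and inner exons were not told apart.

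**Figure D5:**
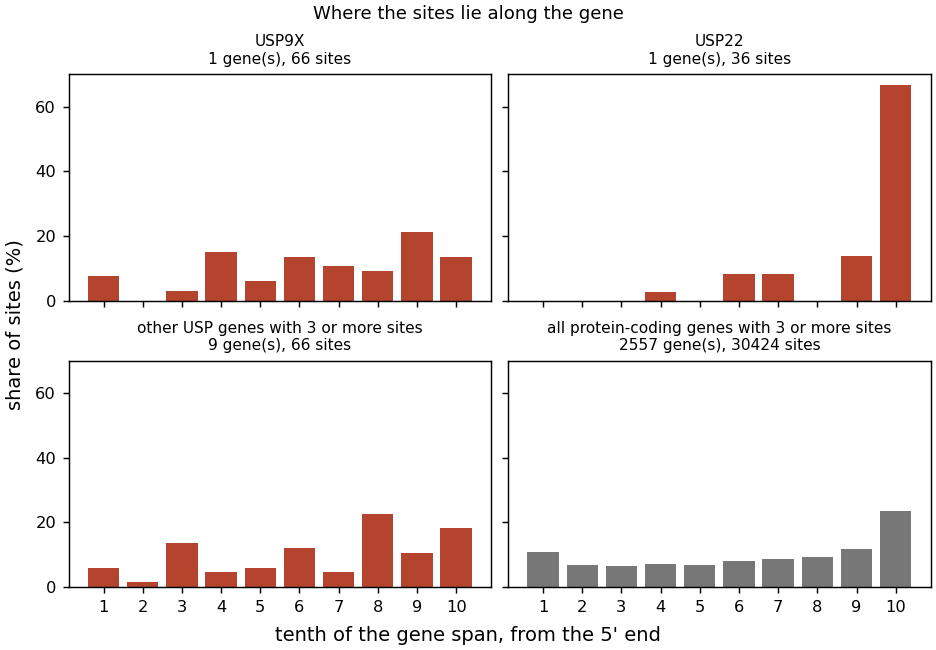
Share of sites in percent (y axis) in each of 10 equal bins of the gene span from the 5′ end (x axis) for USP9X, USP22, the 9 other members with at least 3 sites pooled, and all protein-coding genes with at least 3 sites. In USP22 66.7% of sites fall in the last bin, against 13.6% in USP9X, 18.2% in the other 9 and 23.6% in all genes.

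Grouped sites occurred in some members and not in others. Over the 11 members 53 of 168 sites (31.5%, Wilson interval 25.0% to 38.9%) had another site of their gene within 50 nt, beside 36.7% over all genes with at least 3 sites. They were 28 of the 66 sites of USP9X (42.4%), 15 of 36 in USP22 (41.7%), 4 of 13 in USP1 (30.8%), 2 of 13 in USP24 (15.4%) and all 4 in USP32. The smallest distance was 5 nt, in USP9X and in USP32, where sites abut. With sites within 50 nt joined into 1, USP9X had 50, USP22 28, USP24 12 and USP1 11.

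The members were placed by sequence relatedness or shared role, from textbook knowledge, in 17 groups of 2 or more and 9 groups of 1. In 10 of the 17 groups exactly 1 member had a site (9 without the sites of USP32 at SCARNA20), in 6 none had, and in 1, the giant enzymes USP24 and USP34, both had. Whether related members differ more often than other members, of which 36.7% had a site, was not tested. USP22 had 36 sites while USP27X and USP51, which can take its place in removing ubiquitin from H2B, had 0. The counts are not corrected for length, and the spans of these genes were 43.8, 3.08 and 5.23 kb. USP7 (71.8 kb) had 8 and its longer relatives USP47 (119.9 kb) and USP40 (91.3 kb) had 0. USP21 had 6 while USP2, USP8 and USP50 had 0, and USP33 had 3 while USP20 had 0. USP5 had 1 and USP13 had 0, USP28 had 2 and USP25 had 0, and USP11 had 2 while USP4 and USP15 had 0. USP12 and USP46, which like USP1 are activated by WDR48, had 0. These are differences between single genes in 1 list, with no replicate error. The 9 ungrouped members had a site in 6, with 66 in USP9X, 13 in USP1, 7 in USP48 and 5 in USP19.

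Genes of the other deubiquitinase families, counted with CYLD and USPL1, which have the USP fold, had sites about as often. Of 42 such genes, 15 had a site (35.7%, Wilson interval 22.99% to 50.8%), beside 36.7% of USP genes and 23.2% of all protein-coding genes, and the median among the 15 was 4 sites. In the JAMM family, metalloproteases and their inactive relatives, 7 of 12 had a site. PRPF8, the central protein of the spliceosome and itself without protease activity, led it with 81, before MYSM1, a histone H2A enzyme, with 7 and the translation factor subunit EIF3F with 6. The UCH family had 3 of 4, with 7 in UCHL1, known from neurons, and the OTU family 4 of 15, with 7 in OTUB1. The Josephin family had 1 of 4, and the 5 MINDY and ZUP1 genes and the USP-fold genes CYLD and USPL1 had 0.

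Partners of USPs and genes for ubiquitin itself had sites in 13 of the 19 genes reported (68.4%, Wilson interval 46.0% to 84.6%), beside 23.2% of all protein-coding genes. UCHL5 was in this list and in the one before. Both lists were chosen with earlier results of these data known, so their shares are descriptions and no enrichment was tested. Expression of these genes was not measured. UBA1, which activates ubiquitin at the start of the pathway, had 67 sites, and its relative UBA6 had 0. The ubiquitin genes RPS27A and UBB had 15 each. Both encode ubiquitin, and how well reads of these genes can be told apart was not examined. The split of sites between them is therefore uncertain. Of the genes around USP7, MDM4 had 23 sites, MDM2 had 12 and GMPS had 6, and sites were also found in the USP10 partners G3BP1 with 13 and G3BP2 with 5. By contrast, of the partners of USP22 in SAGA only ATXN7L3 had a site, with 2, while ATXN7 and ENY2 had 0, and the USP8 partners STAM and STAM2 had 0. WDR48 had 2, DMWD had 4 and WDR20 had 0.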

How the data were processed

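Per the labels' protocols, USP39-bound RNA of HEK293T cells was sequenced by iCLIP2 in 6 libraries. The tools, per the submitters' processing notes, included UMI-tools 1.1.2, STAR 2.7.3a, bedtools 2.29.2, FastQC 0.11.9 and SAMtools 1.10 (no role or order is implied), with GRCh38.p12. For the site caller, its filters and the merged libraries, details were not given in the sources used here. Position and strand of each site are what the deposited list gives, and the score the authors deposited is 0 in every row, so it was not used.

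Sites were given to genes of a RefSeq table (GRCh38.p14) by central base and main strand, so a site can count for overlapping genes. Coordinates are GRCh38, first base 1. Positions along genes used genes with at least 3 sites. Shares have 95% Wilson intervals. No test was made, since nothing can be compared over libraries. Of the list of partner and ubiquitin genes, 3 genes are not reported here and are in none of its counts. The members and lists were chosen with earlier results of these data known. Every member was named, members with at least 5 sites with positions, and list genes with at least 5 sites; others named were chosen after their values were seen. The site assignment was tested on simulated data. Python 3.11.15 was used with pandas 2.3.3, numpy 2.4.6, matplotlib 3.10.9 and scipy 1.17.1. Alternatives tried were the number of sites required, strand and overlap rules, joined sites, end windows and leaving out single genes.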

Additional observations from a re-analysis of the deposited data

How the results depend on the processing

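Of 27 alternatives to the main counts and shares, 14 kept the value within 1.5 times (counts and densities) or within its Wilson interval (shares), and 13 moved it. The 18 members with a site became 11 with at least 3 sites required and 9 of 21 (42.9%) when only members that overlap no other gene were kept. The 178 sites became 112 without USP9X and 76 without USP9X and USP22. The share in the last 10% of the gene (26.8%) became 20.2% for the last 5% and 42.3% for the last 20% of the span, 14.3% as the median of members with at least 5 sites, 35.3% without USP9X, 15.9% without USP22 and 18.2% without both. The share with a neighbour within 50 nt (31.5%) became 12.5% within 20 nt, 50.6% within 200 nt and 24.5% without USP9X. Counting both strands changed no count, and giving each site to 1 gene by class left 18 members and 175 sites. Chosen after seeing the data were counting USP6NL, leaving out sites within 50 nt of nested small RNA genes, and leaving out USP22 or USP9X, except for the share in the last 10% without USP9X, which was planned. Alternatives that need exons were not run, since exons were not known here. No paired analysis was possible because the 1 merged list holds no values per library, and for the same reason no replicate could be left out. Site calling depends on read depth and RNA abundance, which are both unknown here.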

Other observations

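Members with a site were unevenly spread over the chromosomes, a pattern seen only after the values were known and not tested. On chromosome 1 all 5 members (USP1, USP21, USP24, USP33 and USP48) had a site, 42 sites in all, and so had all 3 on chromosome 16 (USP7, USP10 and USP31), with 11 sites. The other chromosomes together, leaving out chromosome 1, had 13 of 44 members with a site. Of all protein-coding genes, 27.1% on chromosome 1, 28.0% on chromosome 16 and 22.7% outside chromosome 1 had a site. None of the 3 members on chromosome 4 and none of the 3 on chromosome 15 had a site. Of all protein-coding genes, 15.6% on chromosome 4 and 21.9% on chromosome 15 had one, so 0 of 3 sets neither chromosome apart. On chromosome X, USP9X and USP11 had 68 sites together, while USP26, USP27X and USP51 had 0. There 18.2% of all protein-coding genes had a site.

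Sites just before an annotated start were found in 2 of the 18 members with a site (11.1%), within 50 nt and on the same strand. They were the pair 9 and 2 nt before USP9X and the site 21 nt before USP5. Over all protein-coding genes with a site, 186 of 4628 (4.02%) had such a site.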
